A study of Canis lupus familiaris with 186 samples.

Results

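The GIMAP genes encode GTPases of immunity-associated proteins, small GTP-binding proteins whose genes lie side by side in mammalian genomes and are expressed mainly in lymphocytes and other blood cells. They are known for their part in the development and survival of lymphocytes, and transcripts of the family have also been found in vascular endothelium. Among the members described here, GIMAP4 is known from apoptosis of T cells, GIMAP6 binds the ATG8 protein GABARAPL2 and takes part in autophagy, GIMAP7 stimulates GTP hydrolysis by related GIMAP proteins, and GIMAP8 carries several GTP-binding domains in a single protein.

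GIMAP4, GIMAP6, GIMAP7 and GIMAP8, 4 of 37952 genes in the deposited table, were found by their symbols and had been chosen by earlier results of these same data, in which GIMAP genes moved with immune signatures. GIMAP6 is itself 1 of the 27 genes of GS-1 that were left after the study's filter on low counts. GS-1 is an immune gene signature by which the study grouped its dogs. GIMAP7 and GIMAP8 belong to a further immune-related signature, which the study derived from these same dogs. That signature also holds CD2, CD3E, CXCR6, GZMK and GBP1. The correlations of the members with each other, and their correlations and slopes on immune genes, are therefore descriptions, from which no support is drawn. All 4 members passed the filter on low counts, which 13422 genes passed.

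The libraries are mRNA sequencing of primary appendicular osteosarcomas, a malignant bone tumor, sampled from pet dogs before any treatment and without visible metastases. Of 186 dogs with 1 library each, 93 were enrolled in the trial COTC021 and 93 in COTC022, whose samples are the 2 groups that the labels give. The animals were of several breeds, of differing ages and of both sexes, and surgery and carboplatin with or without rapamycin followed only after sampling. The labels do not tie a dog to a treatment arm. The study's own code takes the trial as the batch, so batch and trial cannot be told apart here. Besides the trial, 50 deposited library names carry a doubled separator and 136 a single one. The 50 come from 18 dogs of COTC021 and 32 of COTC022, and their totals had a median of 19440456 counts. The median was 9851682 counts for the 136, so results were also computed within both kinds of library name.

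Totals ranged from 6587634 to 27420867 counts per library, with a median of 10797171. The library of COTC022 replicate 64 stood apart. It had the highest level of all 4 members and of CD3E, the T cell receptor signalling subunit, at 880 CPM against a median of 2.90 CPM. For COL1A1, the collagen of bone matrix, it had the lowest level of the 186 libraries, with 328 CPM against a median of 20451 CPM. ALPL, the alkaline phosphatase of osteoblasts, was at 0.696 CPM against a median of 695 CPM, also the lowest level. RUNX2, a transcription factor of osteoblasts, was less far from its median, at 126 CPM against 212 CPM. Co-expression, slopes and the trial contrast were repeated without this library.

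In the genome build GSD_1.0, the 4 members lie on chromosome 16 within 106 kb. From the lower coordinates on, the gene models are GIMAP8 (15472338 to 15491048), GIMAP4 (15537710 to 15558644), GIMAP7 (15537724 to 15546779) and GIMAP6 (15572487 to 15578655), by the RefSeq annotation of that build. The span of GIMAP7, 9056 bases, lies whole within that of GIMAP4. Reads that map to both genes were divided between them by the expected counts. Counts of GIMAP4 and GIMAP7 were not whole numbers in the same 6 libraries, and in all 6 their sum was whole to within 0.011 counts. The share of such reads cannot be seen from the counts alone, and the values of these overlapping genes are uncertain to that extent. GIMAP6 and GIMAP8 had whole counts in all 186 libraries. A lncRNA, LOC111090251 (15575767 to 15578974), overlaps GIMAP6 and had a median of 1 count.

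The members varied over a wide range among the tumors. CPM is here the count of a gene per 1000000 counts of its library. GIMAP4 had a lowest, median and highest level of 0.164, 5.56 and 503 CPM. GIMAP6 had 0.700, 7.67 and 257 CPM, and GIMAP8 had 0.164, 4.35 and 240 CPM. GIMAP7 had a median of 1.97 CPM and a highest level of 192 CPM, and its lowest library, COTC022 replicate 73, held 0 counts, which allows up to 0.327 CPM by counting error alone. All 4 highest values belonged to COTC022 replicate 64, from 33.4 times the median for GIMAP6 to 97.4 times for GIMAP7. In counts, the medians were 67 for GIMAP4, 91 for GIMAP6, 24 for GIMAP7 and 49.5 for GIMAP8. Fewer than 10 counts were found in 41 libraries for GIMAP7, against 7 for GIMAP4, 3 for GIMAP6 and 8 for GIMAP8, so low values of GIMAP7 are the least precise. Levels were not compared between the genes, since transcript lengths were not used here.

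The spread was not that of a single library. Between the lower and the upper quartile of dogs, the level differed 4.06-fold for GIMAP4, 3.18-fold for GIMAP6, 4.13-fold for GIMAP7 and 2.80-fold for GIMAP8. The 10 dogs with the highest values held 52.2% of the summed CPM of GIMAP4 and 51.0% of that of GIMAP7, against 31.4% for GIMAP6 and 42.1% for GIMAP8. The distributions of GIMAP4 and GIMAP7 thus had the longer upper tails. When the 20 dogs with the highest level were taken for each gene, 13 dogs were among the highest 20 for all 4 genes. Of these 13, 9 were of COTC021 and 4 of COTC022. At the lower end, 5 dogs were among the lowest 20 for all 4 genes.

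**Figure D1:**
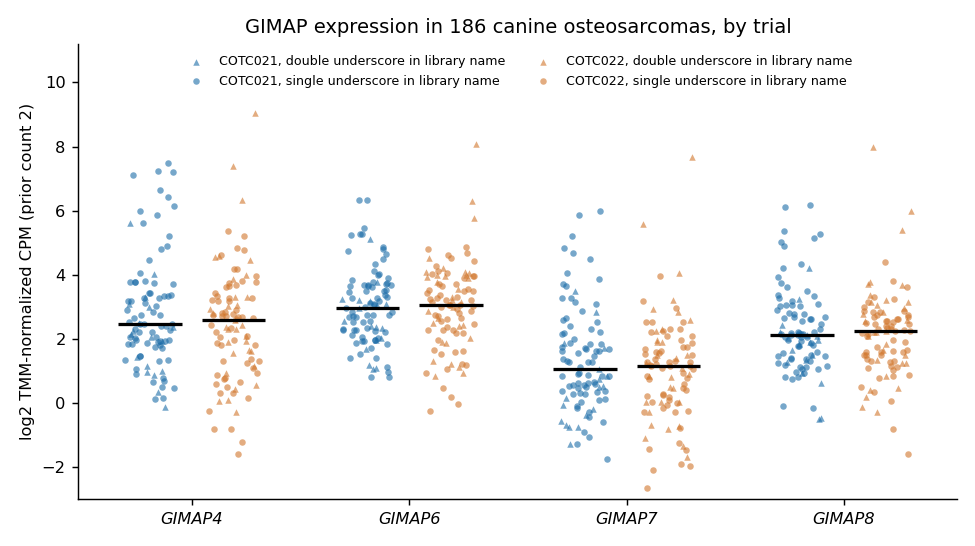
Expression of the 4 GIMAP genes in 186 tumors, on the log2 scale of TMM-normalized CPM, 1 point per dog, with color for the trial and shape for the library name. Black lines are medians of the 93 dogs of a trial, which lie close together for each gene, and the topmost point of each gene is COTC022 replicate 64.

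Between the trials, which enrolled separate dogs, no difference in the GIMAP genes was found. In COTC021, the lowest, median and highest levels of GIMAP4 were 0.790, 5.60 and 163 CPM, and in COTC022 they were 0.164, 5.19 and 503 CPM. Those of GIMAP6 were 1.36, 7.33 and 74.1 CPM in COTC021 and 0.700, 8.20 and 257 CPM in COTC022. For GIMAP7 they were 0.122, 1.92 and 58.8 CPM in COTC021 and 0, 1.99 and 192 CPM in COTC022. For GIMAP8 they were 0.417, 4.30 and 65.6 CPM in COTC021 and 0.164, 4.71 and 240 CPM in COTC022. For all 4 genes the range of COTC021 lay inside the wider range of COTC022, whose top was COTC022 replicate 64 each time.

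In the limma-voom fit across all genes, the log2 difference of COTC022 from COTC021 was -0.31 ± 0.26 (SE, 93 dogs per trial) for GIMAP4, with a Benjamini-Hochberg adjusted p of 0.747. It was 0.02 ± 0.19 for GIMAP6 (limma, adjusted p = 0.986), -0.28 ± 0.26 for GIMAP7 (limma, adjusted p = 0.774) and -0.07 ± 0.20 for GIMAP8 (limma, adjusted p = 0.945). Of the 4 members 0 passed an adjusted p under 0.05, against 2 of 13422 genes (0.0149%), and 0 members had an unadjusted p under 0.05. The quasi-likelihood fit of edgeR called 0 of 4 as well, and DESeq2 gave no p for the 4 members. The 95% confidence intervals allow from -0.83 to 0.21 for GIMAP4, from -0.35 to 0.39 for GIMAP6, from -0.78 to 0.23 for GIMAP7 and from -0.47 to 0.33 for GIMAP8, so differences of that size are not excluded by these numbers of dogs.

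Within the library names the trial difference took opposite signs, though neither sign passed the test. In the 50 libraries with a doubled separator, the log2 difference of COTC022 from COTC021 was 0.64 ± 0.58 (SE) for GIMAP4, 0.66 ± 0.44 for GIMAP6, 0.86 ± 0.59 for GIMAP7 and 0.77 ± 0.50 for GIMAP8. In the other 136 libraries it was -0.79 ± 0.31 for GIMAP4, -0.32 ± 0.21 for GIMAP6, -0.81 ± 0.29 for GIMAP7 and -0.51 ± 0.22 for GIMAP8. The lowest adjusted p of these 8 values was 0.183 by limma, for GIMAP7 in the 136 libraries. The test of the difference between the library names, an interaction term, gave 1.66 ± 0.59 for GIMAP7, with an unadjusted limma p of 0.00533 and an adjusted p of 0.361, and it called 0 of 13422 genes, of which 1466 had an unadjusted p under 0.05. For the other 3 members the term was between 0.99 and 1.43, with adjusted limma p between 0.361 and 0.398.

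CD3E moved in the same way, with a log2 difference between the trials of 0.88 ± 0.72 (SE) in the 50 libraries and -1.03 ± 0.36 in the 136, and an interaction term of 1.91 ± 0.72. With CD3E and the endothelial cadherin CDH5 in the fit, the interaction terms of the 4 members lay between -0.03 and 0.26.

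The 4 members rose and fell together across the tumors. GIMAP4 and GIMAP7, the overlapping pair, had the highest Pearson r of the 6 pairs, at 0.902 with a 95% interval from 0.871 to 0.926. It was followed by GIMAP6 and GIMAP8 at 0.873 (0.834 to 0.903), GIMAP7 and GIMAP8 at 0.861 (0.819 to 0.894) and GIMAP4 and GIMAP8 at 0.858 (0.815 to 0.892). GIMAP6 and GIMAP7 reached 0.833 (0.783 to 0.873), and GIMAP4 and GIMAP6 reached 0.814 (0.759 to 0.857). Each r is over 186 dogs on log2 TMM-normalized CPM, and the values of a dog share 1 library, its depth and its normalization factor. The intervals of neighbouring pairs in this order overlap. Spearman's rho was between 0.756 and 0.882.

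The co-expression was found in every group of libraries. The 6 values of r lay between 0.801 and 0.926 within COTC021, between 0.835 and 0.877 within COTC022, between 0.901 and 0.95 in the libraries with a doubled separator and between 0.777 and 0.882 in the others. They lay between 0.796 and 0.889 without the 2 dogs farthest from the median of the second gene, and between 0.799 and 0.894 without COTC022 replicate 64. Without the 6 libraries in which reads were divided between GIMAP4 and GIMAP7, the r of this pair remained the highest, at 0.878. As a background, an r of at least 0.5 was found for 3.96% of all other genes with GIMAP4, 5.12% with GIMAP6, 3.9% with GIMAP7 and 4.75% with GIMAP8, and the median r of all genes was -0.03 with each of the 4 members.

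The members moved with the T cell gene CD3E and hardly with the endothelial gene CDH5. CD3E, which marks T cells, had a lowest, median and highest level of 0.122, 2.90 and 880 CPM. CDH5, the cadherin of endothelial junctions, was measured at higher counts, with 4.17, 62.3 and 278 CPM. The r with CD3E was 0.893 for GIMAP7 (95% interval 0.860 to 0.919), 0.851 for GIMAP4 (0.805 to 0.886), 0.809 for GIMAP8 (0.753 to 0.854) and 0.747 for GIMAP6 (0.676 to 0.805). With CDH5 it was 0.235 for GIMAP8 (0.094 to 0.367), 0.211 for GIMAP6 (0.070 to 0.345), 0.130 for GIMAP7 (-0.014 to 0.269) and 0.108 for GIMAP4 (-0.037 to 0.248). For all 4 genes the intervals with CD3E and with CDH5 lie far apart. In bulk tumor RNA, more cells of a type and more RNA per cell cannot be told apart.

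Ranked by r among 13418 other genes, CD3E stood at place 3 for GIMAP7, 16 for GIMAP4, 39 for GIMAP8 and 182 for GIMAP6. CDH5 stood between place 2021, for GIMAP8, and place 3241, for GIMAP4. The 20 dogs with the highest CD3E included 14 of the 20 with the highest GIMAP4, 14 for GIMAP7, 14 for GIMAP8 and 10 for GIMAP6. The 20 dogs with the highest CDH5 included 3 or 4 of the 20 highest for each member. The upper ends of GIMAP and CD3E expression were thus largely shared by the same dogs, and those of GIMAP and CDH5 were not.

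**Figure D2:**
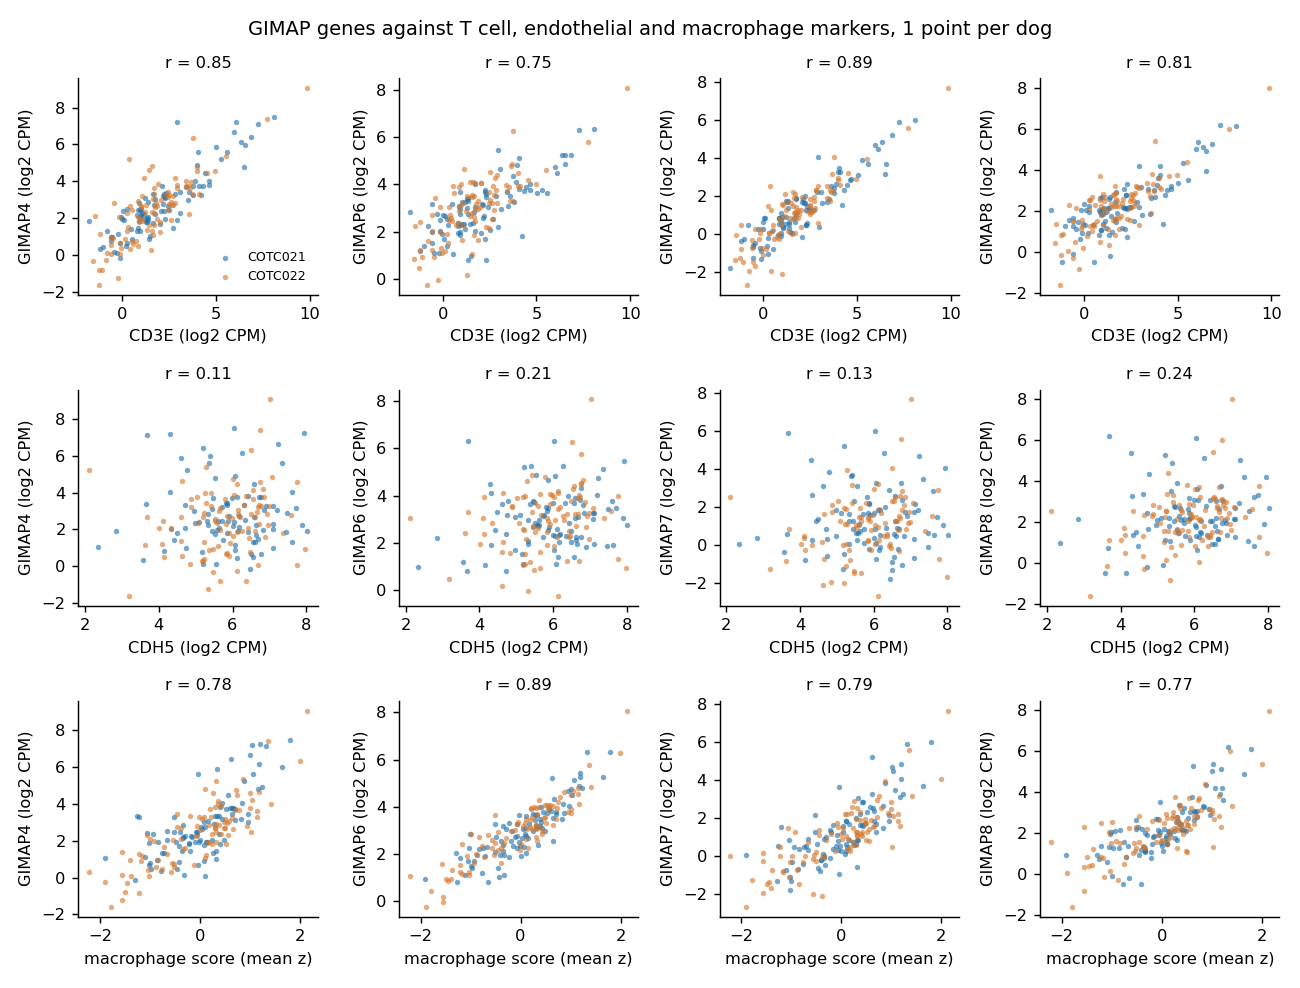
Levels of the 4 GIMAP genes (log2 TMM-normalized CPM) against CD3E, against CDH5 and against the macrophage score, the mean z-score of 10 macrophage genes, with 1 point per dog and color for the trial. The clouds are narrow for CD3E (r from 0.75 to 0.89) and the macrophage score (r from 0.77 to 0.89) and wide for CDH5 (r from 0.11 to 0.24).

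The r with CD3E was 0.755 to 0.913 within COTC021, 0.762 to 0.871 within COTC022, 0.828 to 0.946 in the libraries with a doubled separator and 0.711 to 0.867 in the others, over the 4 members. Without the 2 dogs farthest from the median of CD3E it was 0.710 to 0.876, and Spearman's rho was 0.700 to 0.859. The r with CDH5 was 0.005 to 0.188 within COTC021, 0.198 to 0.358 within COTC022, 0.274 to 0.423 in the libraries with a doubled separator and 0.042 to 0.185 in the others. CD3E and CDH5 themselves had an r of 0.087 over all dogs, of -0.073 within COTC021 and of 0.270 within COTC022.

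Both markers were then placed in 1 limma-voom fit with the trial, so that each slope is the log2 change of a gene per SD of 1 marker at a fixed level of the other. An SD was 4.05-fold for CD3E and 2.11-fold for CDH5. The slope on CD3E was 1.58 ± 0.06 (SE) for GIMAP4, 1.57 ± 0.04 for GIMAP7, 1.19 ± 0.05 for GIMAP8 and 1.00 ± 0.05 for GIMAP6. The slope on CDH5 was 0.18 ± 0.06 for GIMAP6, 0.18 ± 0.06 for GIMAP8, 0.09 ± 0.06 for GIMAP7 and 0.06 ± 0.07 for GIMAP4. The 95% intervals of the CDH5 slope excluded 0 for GIMAP6 (0.06 to 0.30) and GIMAP8 (0.06 to 0.29) and included it for GIMAP4 (-0.07 to 0.20) and GIMAP7 (-0.02 to 0.20).

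By the call used here, an adjusted p under 0.05 and a slope of at least 0.5, the CD3E slope was called in 4 of 4 members, beside 500 of 13422 genes (3.73%), and the CDH5 slope in 0 of 4, beside 313 genes (2.33%). Since the members had been chosen for moving with immune genes in these data, the count on CD3E restates that choice. The CDH5 slopes of GIMAP6 (limma, adjusted p = 0.019) and GIMAP8 (limma, adjusted p = 0.015) missed the call by their size alone. Slopes of that kind were also found in other immune genes. Of the 27 GS-1 genes, GIMAP6 included, 14 had a positive CDH5 slope with an adjusted limma p under 0.05, with a list median of 0.18. The same held for 2 of 10 T cell genes and 1 of 10 macrophage genes. The slope on CD3E exceeded that on CDH5 by between 0.82 ± 0.09 (SE) for GIMAP6 and 1.52 ± 0.09 for GIMAP4. That CDH5 follows endothelium in these tumors was checked on the endothelial list: all 15 genes, CDH5 itself included, had a positive CDH5 slope with an adjusted p under 0.05 and 14 had one of at least 0.5, with a median of 0.77. All 10 tested T cell genes, CD3E itself included, had a CD3E slope of at least 0.5, with a median of 1.43. So had 8 of 10 macrophage genes, with a list median of 0.84. Of the 27 GS-1 genes, GIMAP6 included, 25 had one, with a list median of 1.06. A CD3E slope of this size was thus not particular to T cell genes. Without COTC022 replicate 64, the CD3E slopes were 1.51 for GIMAP4, 1.49 for GIMAP7, 1.10 for GIMAP8 and 0.92 for GIMAP6.

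The members also moved with genes of macrophages. The macrophage score had an r of 0.894 with GIMAP6 (95% interval 0.861 to 0.919), 0.787 with GIMAP7 (0.726 to 0.837), 0.779 with GIMAP4 (0.715 to 0.830) and 0.772 with GIMAP8 (0.707 to 0.825). For GIMAP6 the value was above that with CD3E, and the intervals of these do not overlap. CSF1R, the receptor for the macrophage growth factor M-CSF, had an r of 0.652 with GIMAP6 and 0.579 with GIMAP8, against 0.370 with GIMAP4 and 0.367 with GIMAP7. For CD68, a lysosomal protein of macrophages, the values were 0.344 for GIMAP6, 0.328 for GIMAP8, 0.098 for GIMAP4 and 0.074 for GIMAP7. AIF1, a calcium-binding protein of macrophages, had the highest mean r of the list, from 0.733 with GIMAP8 to 0.872 with GIMAP6. The order of the members was not the same for all genes of the list. GIMAP8 had the lowest r of the 4 members for 7 of the 10 genes, among them MSR1, a scavenger receptor, at 0.557 against 0.710 for GIMAP4, 0.687 for GIMAP7 and 0.722 for GIMAP6.

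When the macrophage score was added to the fit, the order of the markers differed between the members. For GIMAP6 the slope on the macrophage score was 0.93 ± 0.05 (SE) and that on CD3E fell to 0.40 ± 0.05, under the size used for a call. GIMAP7 had a slope of 1.19 ± 0.06 on CD3E, against 0.60 ± 0.07 on the macrophage score. For GIMAP4 the slopes were 1.13 ± 0.07 on CD3E and 0.72 ± 0.09 on the macrophage score, and for GIMAP8 they were 0.82 ± 0.06 and 0.60 ± 0.07. The macrophage slope was called in 4 of 4 members, beside 4.2% of all genes, a count that the choice of members also fixes in part. The CDH5 slope in this fit was between -0.01 ± 0.06 for GIMAP4 and 0.13 ± 0.05 for GIMAP8. CD3E is 1 gene, with a median of 36 counts and fewer than 10 in 29 libraries, whereas the score is a mean over 10 genes. The r between CD3E and the score is not given here. How far their unlike precision bears on the order of the slopes was not tested.

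**Figure D3:**
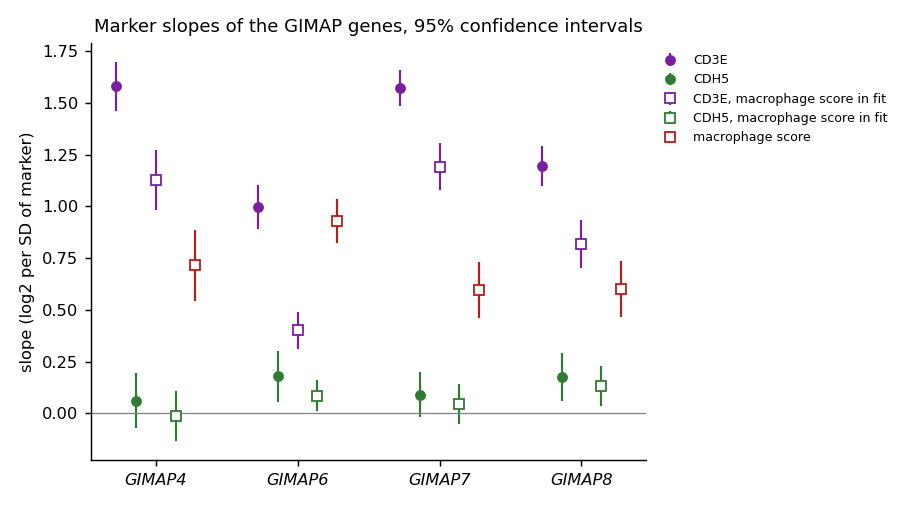
Slopes of the 4 GIMAP genes in log2 per SD of a marker, with 95% confidence intervals, from the fit on CD3E and CDH5 (filled circles) and from the fit with the macrophage score added (open squares). GIMAP6 is the only member whose macrophage slope (0.93) lies above its CD3E slope (0.40) in the latter fit. All CDH5 slopes lie at 0.18 or below, with intervals that exclude 0 for GIMAP6 and GIMAP8.

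How the members differ among themselves was read from the ratios of their levels within a dog. The scaling of the library cancels in these ratios except at low counts, where the added prior count of 2 weighs in. GIMAP7 had fewer than 10 counts in 41 libraries. With CD3E, CDH5, the macrophage score and the trial in 1 linear fit over 186 dogs, the log2 ratio of GIMAP6 to GIMAP7 changed by -0.72 ± 0.07 (SE, 95% interval -0.86 to -0.58) per SD of CD3E and by 0.35 ± 0.07 (0.21 to 0.49) per SD of the macrophage score. The ratio of GIMAP6 to GIMAP8 changed by -0.37 ± 0.06 (-0.49 to -0.25) and 0.38 ± 0.06 (0.26 to 0.49), and that of GIMAP4 to GIMAP6 by 0.70 ± 0.09 (0.53 to 0.87) and -0.22 ± 0.09 (-0.39 to -0.04). GIMAP6 therefore differed from each other member in both slopes, with less on CD3E and more on the macrophage score. GIMAP4 and GIMAP7 were not told apart by any of the markers, since the intervals of their ratio included 0 for CD3E (-0.18 to 0.13), CDH5 (-0.16 to 0.07) and the macrophage score (-0.02 to 0.28).

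In its CD3E slope GIMAP8 lay between GIMAP6 and the other members. Against GIMAP7 it showed less of CD3E, with a slope of the GIMAP7 to GIMAP8 ratio of 0.35 ± 0.07 (0.21 to 0.50), and more of CDH5, with a slope of -0.14 ± 0.06 (-0.25 to -0.03). The ratio of GIMAP4 to GIMAP8 changed by 0.33 ± 0.08 (0.17 to 0.49) per SD of CD3E and by -0.18 ± 0.06 (-0.30 to -0.07) per SD of CDH5. Without COTC022 replicate 64, none of the 18 ratio slopes changed its sign, and the same intervals excluded 0.

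Single dogs with high levels differed in which member was raised most. COTC022 replicate 43 had the highest AIF1 of all libraries, at 193 CPM, and the highest CD163, a scavenger receptor of macrophages, at 1827 CPM, with CD3E at 13.8 CPM, 4.75 times its median. In this dog GIMAP4 was 14.8 times its median, GIMAP6 10.4 times, GIMAP8 9.85 times and GIMAP7 8.55 times. By place among the dogs GIMAP6 was the second highest and GIMAP7 the tenth. COTC021 replicate 36 had CD3E at 139 CPM, 48.1 times its median, and CDH5 at 11.5 CPM, in place 180. GIMAP7 was there 26.9 times its median, GIMAP4 22.7 times, GIMAP8 15.1 times and GIMAP6 9.46 times, in places 3, 6, 2 and 4. COTC021 replicate 33 had AIF1 at 168 CPM, the second highest CDH5 at 257 CPM and CD3E at 7.86 CPM. GIMAP4 was there 28.3 times its median, in place 3, whereas GIMAP7 was 8.68 times, GIMAP6 5.95 times and GIMAP8 4.42 times. Its COL1A1, at 1107 CPM, was the second lowest of the 186 libraries. By fold over the median, GIMAP6 was not the member raised most in either of the dogs with the highest and the second highest AIF1. The members differ in spread, with an SD of 3.42-fold for GIMAP4 and 2.42-fold for GIMAP6, so these folds share no common scale. By place, GIMAP6 stood highest of the 4 members in COTC022 replicate 43, at 2 against 6 for GIMAP8, 9 for GIMAP4 and 10 for GIMAP7. In COTC021 replicate 33 it stood at 6, after GIMAP4 at 3. Whether these dogs follow the slopes over the cohort was not tested. At the lower end, COTC022 replicate 36 had 2 counts of GIMAP4, 6 of GIMAP6, 5 of GIMAP7, 3 of GIMAP8 and 5 of CD3E.

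CD3E and the macrophage score together left part of the co-expression in place. They accounted for 86.0% of the variance of GIMAP7, 83.7% of that of GIMAP6, 80.1% for GIMAP4 and 74.8% for GIMAP8. In the residuals, r was 0.525 (95% interval 0.412 to 0.623) for GIMAP6 and GIMAP8 and 0.438 (0.313 to 0.548) for GIMAP4 and GIMAP7. It was lower for GIMAP4 and GIMAP6, at 0.178 (0.034 to 0.314), and for GIMAP6 and GIMAP7, at 0.224 (0.082 to 0.357). The pairs of GIMAP8 with GIMAP4, at 0.380, and with GIMAP7, at 0.330, lay between. The residual of a lowly counted gene holds more counting error, which lowers its r. Cell content that CD3E and the macrophage score do not capture stays in the residuals and can raise r. Neither part was tested. Without COTC022 replicate 64 the 6 values were between 0.172 and 0.509.

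GIMAP2, the only other gene with a GIMAP symbol past the filter, keeps company with GIMAP6 and GIMAP8. GIMAP2 is a membrane-bound member found on lipid droplets. It had a lowest, median and highest level of 0.105, 3.16 and 64.9 CPM, and an r of 0.825 with GIMAP6, 0.804 with GIMAP8, 0.696 with GIMAP7 and 0.692 with GIMAP4. Its own r with CD3E was 0.624 and with CDH5 0.235. Given CD3E and the macrophage score, r was 0.50 (95% interval 0.383 to 0.601) with GIMAP6 and 0.511 (0.395 to 0.610) with GIMAP8, against 0.144 (-0.001 to 0.283) with GIMAP4 and 0.128 (-0.017 to 0.267) with GIMAP7, intervals that do not overlap between these pairs of genes. The limma slopes of GIMAP2 were 0.90 ± 0.06 (SE) on CD3E and 0.18 ± 0.07 on CDH5. GIMAP1, known from lymphocyte development, was counted too low for the filter, with a median of 3 counts and 0 counts in 32 libraries. Of 5 other family names looked for, only GIMAP1 and GIMAP2 are listed in the table under these symbols.

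Around the cluster, an r of at least 0.5 with the mean of the 4 members was found on 1 side. Within 500 kb before GIMAP8, 14 genes passed the filter. Their r with the mean of the 4 members was between -0.182 and 0.431, with ZNF467, another GS-1 gene, the highest. Of single members, GIMAP6 had an r of 0.512 with ZNF862 on this side, against 0.447 for GIMAP8, 0.272 for GIMAP7 and 0.258 for GIMAP4. Within 500 kb after GIMAP6, 15 genes passed, and 4 had an r of at least 0.5. The share over all genes was not computed for the mean of the members. With single members it was between 3.9% and 5.12%. The 4 neighbours were the next ones along the chromosome among genes past the filter. They were GIMAP2 (15593970 to 15598383), at 0.798, LOC100687459 (15613881 to 15622077), at 0.916, TMEM176B (15645460 to 15653204), at 0.642, and TMEM176A (15653561 to 15657879), at 0.651. LOC100687459, a protein-coding gene without a symbol in the annotation, had a median of 46 counts. Its r was 0.891 with GIMAP6, 0.877 with GIMAP8, 0.852 with GIMAP4, 0.841 with GIMAP7 and 0.798 with CD3E. The r with CD3E was 0.639 for TMEM176B, 0.651 for TMEM176A and 0.624 for GIMAP2. Whether the place on the chromosome has a part in these values was not tested. Family members were looked for by symbol, so whether LOC100687459 is a further GIMAP gene was not tested. From KCNH2, a potassium channel gene, onwards the 11 remaining genes had an r of at most 0.355. NOS3, the nitric oxide synthase of endothelium, was among them with 0.210.

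**Figure D4:**
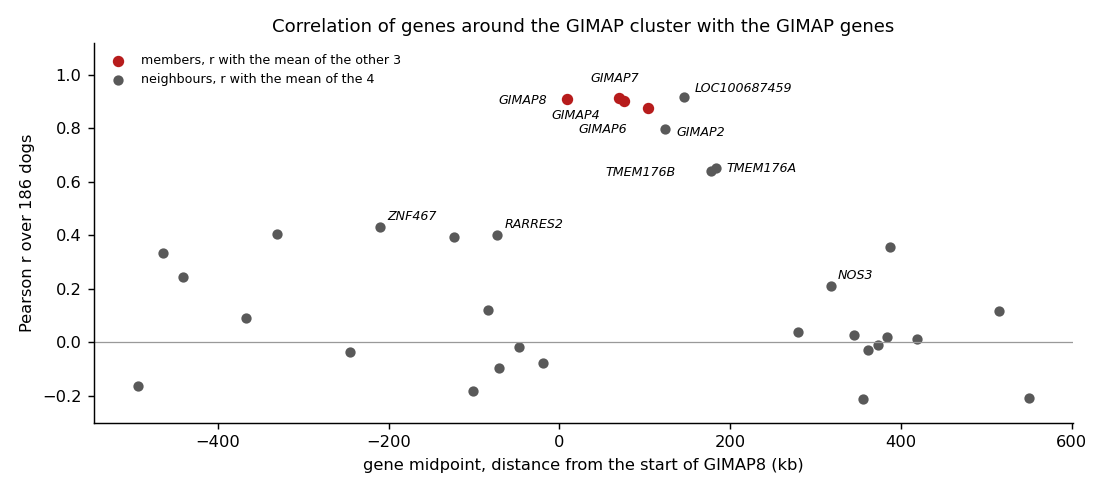
Pearson r over 186 dogs of each gene past the filter with the mean of the GIMAP genes, by the distance of the midpoint of the gene from the start of GIMAP8 in kb. Members (red) are set against the mean of the other 3 and lie between 0.878 and 0.913, and GIMAP2, LOC100687459, TMEM176B and TMEM176A are the only neighbours (grey) above 0.5.

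The genes most like each member over the 186 dogs, members and genes without a symbol left out, differed between the members. For GIMAP7 they were SASH3, an adaptor of lymphocytes, at an r of 0.898, CD3E at 0.893, the T cell adhesion receptor CD2 at 0.890, the lymphoid transcription factor IKZF1 at 0.886 and the chemokine receptor CXCR6 at 0.885. For GIMAP4 they were the inflammatory caspase CASP4 at 0.892, SASH3 at 0.877, CD2 at 0.876, the lysosomal protease CTSS at 0.873 and DLA-DMB, of antigen presentation by MHC class II, at 0.869. GIMAP6 was closest to DENND1C at 0.913, the leukocyte tetraspanin CD53 at 0.909, PARVG at 0.906, ARHGAP30 at 0.903 and the phosphatase PTPN6 at 0.900. GIMAP8 was closest to the pan-leukocyte phosphatase PTPRC, known as CD45, at 0.874, the integrin ITGAL at 0.860, DENND2D at 0.853, ARHGAP30 at 0.850 and DENND1C at 0.848. CD3E is among these genes for GIMAP7 alone of the 4 members. The study had already placed GIMAP7 with CD3E, CD2 and CXCR6 in 1 signature from these same dogs, so their closeness restates that choice. SASH3 and CD2 were shared by GIMAP4 and GIMAP7, and ARHGAP30 and DENND1C by GIMAP6 and GIMAP8.

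Over the cell type lists, the members followed T cell, cytotoxic and macrophage genes and had negative r with 7 of 8 osteoblast genes. Of 10 T cell genes past the filter, 8 or 9 had an r of at least 0.5 with each member. The list's median r was between 0.62 for GIMAP6 and 0.70 for GIMAP8, with CD2 highest at a mean r of 0.852 and CD247 lowest at 0.445. The 3 cytotoxic genes past the filter had a median r between 0.68 for GIMAP6 and 0.82 for GIMAP7, with GZMK, a granzyme, at a mean r of 0.821 and the chemokine CCL5 at 0.729. Among macrophage genes 8 to 9 of 10 reached an r of 0.5, with a median between 0.64 for GIMAP8 and 0.78 for GIMAP6. For JCHAIN, the joining chain of antibodies and the only B cell gene past the filter, the mean r was 0.547. Neutrophil genes were lower, from a mean r of -0.096 for MPO to 0.455 for CSF3R, and 0 of 5 reached 0.5 with any member.

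None of the 15 endothelial genes reached an r of 0.5 with any member, and the median was between 0.12 for GIMAP4 and 0.21 for GIMAP6. The highest was TEK, the angiopoietin receptor TIE2, with 0.413 for GIMAP6, 0.365 for GIMAP8, 0.297 for GIMAP7 and 0.223 for GIMAP4. The lowest was PLVAP, at a mean r of 0.069. Mural cell genes had a median near 0, with ACTA2 highest at a mean r of 0.161 and CSPG4 lowest at -0.406. Of the 8 osteoblast genes, SP7, the osteoblast transcription factor osterix, was lowest at a mean r of -0.487, and SPP1, which encodes osteopontin and is also made by macrophages, was the highest at 0.209. In a bulk library the shares of all genes add up to a fixed total, and the part of this in the negative values was not tested.

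**Figure D5:**
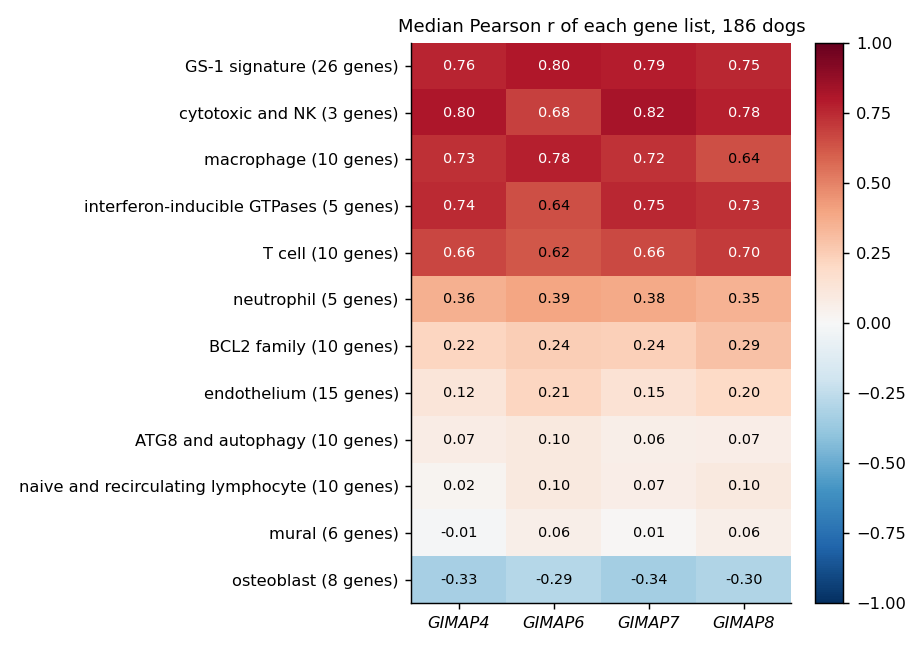
Median Pearson r over 186 dogs of the genes of each list with each GIMAP gene, for lists with at least 3 genes past the filter, in order of the mean over the 4 members. T cell, cytotoxic, macrophage and interferon-inducible GTPase lists lie between 0.62 and 0.82, endothelial genes between 0.12 and 0.21 and osteoblast genes between -0.34 and -0.29.

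Genes tied to known functions of the GIMAP proteins did not all move with them. Among interferon-inducible GTPases, which share the GTP-binding fold but lie elsewhere in the genome, 4 of 5 had an r of at least 0.5 with each member, from GBP1 at a mean r of 0.764 down to MX1 at 0.360. The genes of ATG8 proteins and autophagy, the process GIMAP6 takes part in, reached 0.5 in 0 of 10 cases, with ATG7 highest at a mean r of 0.293 and ULK1 lowest at -0.176. GABARAPL2, the ATG8 protein bound by GIMAP6, had an r of 0.114 with GIMAP6. In the BCL2 family of apoptosis regulators, to which GIMAP proteins have been linked in lymphocytes, the anti-apoptotic BCL2A1 reached a mean r of 0.697. BID, a pro-apoptotic member, was at -0.388 and BCL2 itself, named here after its values were seen, at 0.053, so the family did not move as a group.

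Markers of naive and recirculating lymphocytes, in which the family is well known, were divided. CCR7, the homing receptor for lymph nodes, had the highest mean r of this list at 0.738, and 2 to 3 of 10 genes reached 0.5 with each member. The median of the list was between 0.02 for GIMAP4 and 0.10 for GIMAP6 and GIMAP8, and LEF1, a transcription factor of naive T cells, was lowest at a mean r of -0.268.

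With the GS-1 signature the relation is partly given by the choice of members. A GS-1 score was the mean z-score of the 26 genes other than GIMAP6 that the study's filter left in GS-1. Its r was 0.930 with GIMAP6, 0.902 with GIMAP7, 0.882 with GIMAP4 and 0.879 with GIMAP8. Of the 26 genes, 24 had an r of at least 0.5 with each member, from CD53 at a mean r of 0.876 to CCR1 at 0.313. C1QB and VSIG4 are also in the macrophage list. The score is a continuous value, and no dogs were grouped by it. The study's own clusters, disease-free interval and survival were not analysed here, since the sample labels do not give them.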

How the data were processed

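The authors trimmed reads of stranded mRNA libraries with Cutadapt, aligned them to GSD_1.0 with STAR 2.7.0f and quantified genes with RSEM 1.3.1 (versions per the labels). The deposited values are expected counts, which divide a read among the genes it fits, 3.07% of them not whole. The strand setting of RSEM is not given in the sources used here. The counts were rounded, 12 of 198 columns match no sample and were not used, and each dog is 1 library. Genes were kept with filterByExpr of edgeR 4.0.16 (10 counts, min.prop 0.5), normalized by TMM. Linear fits used voom of limma 3.58.1 (R 4.3.3), with Benjamini-Hochberg adjustment over all 13422 genes. DESeq2 1.42.0 and edgeR's quasi-likelihood fit were alternatives. Simulated counts with known changes served to check the limma step. Correlations (Python 3.11.15, scipy 1.17.1) used log2 CPM with a prior count of 2, with Fisher's intervals. The genes named are the members, other GIMAP genes, CD3E, CDH5, the 5 genes with the highest r for each member, the ends of each list by mean r, and genes within 500 kb. CSF1R, CD163, COL1A1, ALPL, RUNX2, GABARAPL2, BCL2, C1QB and VSIG4 were named after their values were seen. The members and lists were chosen with earlier results of these data known. P-values measure the spread between dogs.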

Additional observations from a re-analysis of the deposited data

How the results depend on the processing

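The count of members called was the same under every alternative that gave one: 0 of 4 for the trial and for CDH5, and 4 of 4 for CD3E and the macrophage score, except 3 of 4 on CD3E with the macrophage score added (GIMAP6 at 0.40) and 3 of 4 on the macrophage score within COTC021 (GIMAP7 at 0.44). DESeq2 gave no p for the members in the trial contrast. The trial difference, not called, changed sign in the libraries with a doubled separator (0.64 for GIMAP4, 0.86 for GIMAP7, 0.77 for GIMAP8), in the others (-0.32 for GIMAP6), with CD3E and CDH5 added (0.0139 for GIMAP4, 0.0919 for GIMAP7, 0.19 for GIMAP8), with the library name also added (0.10 for GIMAP7, 0.17 for GIMAP8), for GIMAP8 by edgeR's quasi-likelihood fit (0.10) and DESeq2 (0.0790), and for GIMAP6 without COTC022 replicate 64 (-0.0427). The CDH5 slope of GIMAP4 turned to -0.0124 with the macrophage score, -0.0330 within COTC022 and -0.0360 in the libraries with a doubled separator. The cause was not tested. The median r of the 6 pairs moved to 0.816 with Spearman's rho and 0.913 in the libraries with a doubled separator, that with CD3E to 0.767 and 0.899, and in the same libraries that with CDH5 to 0.309 and that with GIMAP2 to 0.841. Genes called by trial were 129 with edgeR's quasi-likelihood fit, 71 with DESeq2, 0 in the libraries with a doubled separator (829 at an unadjusted p under 0.05), 8 in the others and 10 with library name, CD3E and CDH5 added, against 2. Genes called on CD3E were 221 with the macrophage score and 976 with no filter on low counts, against 500. Leaving out COTC022 replicate 64 or the libraries with divided reads, adding library name, CD3E and CDH5 together, and the alternatives of the macrophage fit were chosen after seeing the data. No paired analysis was possible because each dog gave 1 library and belongs to 1 trial.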
